A study of Mus musculus with 57 samples.

Results

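Klf2, Klf4 and Klf5 encode 3 zinc-finger transcription factors of the Krüppel-like (KLF) family. Binding of GATA6, NANOG, SOX2, GATA4 and SOX17 around these genes was followed in mouse embryonic stem (ES) cells that were turned towards primitive endoderm (PrE) by GATA6. Every peak with its summit, the base of highest signal, within 100 kb of the transcription start site (TSS) of one of the genes was taken from 30 peak lists. This gave 900 of 775358 peaks, of which 235 were near Klf2, 258 near Klf4 and 407 near Klf5. Summits at most 250 bp apart were joined into sites, and the 3 windows held 205 of the 218737 sites of the genome: 50 around Klf2, 61 around Klf4 and 94 around Klf5. A list has a peak at a site if one of its summits lies in it.

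The lists came from CUT&RUN, in which an antibody directs a nuclease to a protein on chromatin and the released fragments are sequenced. All groups were KH2 ES cells, labelled as C57BL/6, that carry the transgene TRE:GATA6-DSREd2, including those at 0 h, so a single line stands behind every value and no group lacks the transgene. Cells at 0 h were kept in 2i medium with LIF and without doxycycline, which switches the transgene on through its tetracycline-responsive element. Cells at 2, 4 and 8 h had been in serum medium with LIF and doxycycline for that time, so GATA6 induction and the change of medium cannot be told apart. For GATA4 and SOX17 at 24 h and GATA6 at 48 h, doxycycline was given for 12 h and then withdrawn. GATA6 was mapped at 0, 2, 4, 8 and 48 h, and NANOG and SOX2 at 0, 2, 4 and 8 h, with 2 replicate lists in each of the 15 groups. Titles of the GATA6 48 h libraries and of replicate 2 at 0 h carry the code JT. The other GATA6 titles from ES cells carry DL, and those of 48 h are also marked as merged. The titles do not say what the codes or the mark mean. The study describes its replicate experiments as independent, and the labels do not say whether both lists of a group came from separate cultures. The peak names in 6 of the GATA6 lists differ from the record of the sample: lists recorded for 4 h are named 48 h, those recorded for 8 h are named 4 h, and those recorded for 48 h are named 8 h. Times below follow the names, and every GATA6 value at 4, 8 or 48 h rests on that choice.

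KLF2, KLF4 and KLF5 belong to the core network that keeps mouse ES cells in the naive state, the counterpart of the epiblast (Epi) of the blastocyst. They bind GC-rich and CACCC-like sequences, often beside SOX2 and OCT4, and can partly stand in for one another. LIF signalling through STAT3 feeds into Klf4, and inhibition of MEK, a part of 2i medium, is known to stabilise KLF2. Klf5 is also expressed in the trophectoderm, and a group of distal enhancers downstream of Klf4 is known from ES cells. GATA6 is the master regulator of PrE, GATA4 and SOX17 act after it, and NANOG and SOX2 hold the Epi programme.

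The genes lie on 3 chromosomes. Klf4 (ENSMUSG00000003032.8, mm10 chr4:55527143-55532466, minus strand) and Klf5 (ENSMUSG00000005148.8, chr14:99298691-99315036, plus strand) are the single protein-coding genes with a TSS in their windows. The window of Klf2 (ENSMUSG00000055148.7, chr8:72319033-72321656, plus strand) also holds the TSSs of Fam32a, Ap1m1 and Gm10282, so its peaks cannot be given to Klf2 alone. Of the 205 sites, 143 were intergenic, 49 lay in introns, 5 in UTRs and 4 in coding exons, and 6 were within 1 kb of the TSS of the gene. Around Klf4, 47 of 61 sites lay downstream and 27 of them between 50 and 80 kb downstream, where no protein-coding gene has its TSS.

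For each gene, the genomic sequence (GRCm38, the build called mm10, plus strand, 201 bases centred on the summit) is shown at the site of highest GATA6 2 h fold and the site of highest NANOG 0 h fold. For Klf4 and Klf5 the site of highest GATA6 48 h fold is added, and Klf2 had no site with GATA6 in both 48 h lists. Capitals mark GATA words (GATA after an A or T and before an A or G) in the GATA6 sequences, and SOX words (CATTGT or, as its other form, CTTTGT) or the POU word, which is ATGCAAA, in the NANOG sequences, each on either strand. None of these stretches overlaps an exon.
Klf2, 35.3 kb downstream, GATA6 2 h summit, chr8:72354224-72354424: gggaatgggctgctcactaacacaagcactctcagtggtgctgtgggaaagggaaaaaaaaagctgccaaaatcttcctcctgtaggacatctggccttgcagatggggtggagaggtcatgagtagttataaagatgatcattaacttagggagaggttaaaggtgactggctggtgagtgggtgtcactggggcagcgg
Klf2, 15.3 kb downstream, NANOG 0 h summit, chr8:72334302-72334502: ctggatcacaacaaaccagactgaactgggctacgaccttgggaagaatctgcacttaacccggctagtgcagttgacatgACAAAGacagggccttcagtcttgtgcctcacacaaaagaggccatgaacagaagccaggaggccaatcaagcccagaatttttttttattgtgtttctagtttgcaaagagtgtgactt
Klf4, 68.2 kb downstream, GATA6 2 h summit, chr4:55464149-55464349: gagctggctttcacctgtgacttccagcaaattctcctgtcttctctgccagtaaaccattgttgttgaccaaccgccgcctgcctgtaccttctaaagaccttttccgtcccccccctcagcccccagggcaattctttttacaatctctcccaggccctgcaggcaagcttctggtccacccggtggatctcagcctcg
Klf4, 55.0 kb downstream, NANOG 0 h summit, chr4:55477496-55477696: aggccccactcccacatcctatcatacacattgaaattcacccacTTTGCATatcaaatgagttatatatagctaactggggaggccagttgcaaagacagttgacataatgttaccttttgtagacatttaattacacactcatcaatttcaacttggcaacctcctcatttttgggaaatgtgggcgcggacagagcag
Klf4, 16.4 kb downstream, GATA6 48 h summit, chr4:55516049-55516249: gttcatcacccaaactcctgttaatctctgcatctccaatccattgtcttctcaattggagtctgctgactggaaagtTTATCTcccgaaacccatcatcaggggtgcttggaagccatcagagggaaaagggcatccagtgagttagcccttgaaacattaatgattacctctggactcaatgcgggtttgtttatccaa
Klf5, 23.2 kb upstream, GATA6 2 h summit, chr14:99275353-99275553: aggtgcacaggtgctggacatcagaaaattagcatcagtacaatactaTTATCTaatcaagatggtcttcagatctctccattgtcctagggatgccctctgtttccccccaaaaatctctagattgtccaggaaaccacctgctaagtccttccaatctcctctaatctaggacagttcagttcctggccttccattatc
Klf5, 26.2 kb downstream, NANOG 0 h summit, chr14:99324713-99324913: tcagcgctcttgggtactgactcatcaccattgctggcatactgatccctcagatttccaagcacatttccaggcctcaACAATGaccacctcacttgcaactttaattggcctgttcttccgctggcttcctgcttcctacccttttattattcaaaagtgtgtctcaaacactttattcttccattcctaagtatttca
Klf5, 33.1 kb downstream, GATA6 48 h summit, chr14:99331797-99331997: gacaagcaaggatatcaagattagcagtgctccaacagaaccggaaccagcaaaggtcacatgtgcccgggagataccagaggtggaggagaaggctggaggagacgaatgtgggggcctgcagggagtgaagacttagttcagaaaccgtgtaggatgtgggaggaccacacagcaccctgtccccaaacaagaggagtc
The strongest GATA6 2 h sites of Klf2 and Klf4 held no GATA word in this window, and that of Klf5 held 1. The strongest 48 h site of Klf4 held 1 and that of Klf5 held none. These numbers depend on the summit that centres the window. Around its GATA6 2 h summit the same Klf5 site held 3, and the Klf4 site 68.2 kb downstream held 1 around its 48 h summit. A match is a description of the letters and not of a bound site, and its absence says only that these letters were not in the window.

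The libraries differed in depth and length. GATA6 lists held 86 and 882 peaks at 0 h, between 28676 and 79358 from 2 to 8 h, and 5933 and 9767 by 48 h. NANOG lists held 2255 to 52285 peaks and SOX2 lists 11540 to 52574. Read totals were not used here, and depth is given as the background coverage that underlies the fold values. It was 0.29 and 0.31 fragments per base in the GATA6 0 h lists and 0.93 to 1.34 in the later ones, 0.86 to 1.31 for NANOG and 0.29 to 0.69 for SOX2. The 0 h GATA6 counts therefore come from shallower libraries.

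GATA6 peaks were found around all 3 genes within 2 h of induction, and most abundantly around Klf5. Near Klf5, the 2 GATA6 lists of 0, 2, 4, 8 and 48 h held in turn 0 and 0, 48 and 38, 30 and 39, 21 and 25, and 5 and 7 peaks. Near Klf4 they held 0 and 0, 23 and 24, 20 and 19, 11 and 14, and 3 and 4 at the same times. Near Klf2 they held 0 and 0, 22 and 20, 12 and 21, 8 and 13, and 0 and 3. For each gene both 48 h lists lay below both 2 h lists, as they did for 89.1% of the 20443 protein-coding genes with a peak in one of these groups. From 2 to 4 h the lists separated for Klf4 and overlapped for Klf2 and Klf5, with a background of 45.0%. From 4 to 8 h they separated for Klf4 and Klf5 (background 61.3%), and from 8 to 48 h for all 3 genes (69.6%).

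The mean number of GATA6 peaks near Klf5 was 43.0 ± 7.07 at 2 h against 6.0 ± 1.41 at 48 h (SD, n = 2). It was 23.5 ± 0.707 and 3.5 ± 0.707 near Klf4, and 21.0 ± 1.41 and 1.5 ± 2.12 near Klf2. Peak number differed among the 5 time points for Klf5 (exact permutation test over the lists, two-sided, p = 0.00212, adjusted p = 0.0112), Klf4 (p = 0.00106, adjusted p = 0.0112) and Klf2 (p = 0.0159, adjusted p = 0.0274), where p was adjusted by Benjamini-Hochberg over all 20661 genes tested. These 3 calls stand against a background of 68.8% of genes called (76.2% at an unadjusted p under 0.05), so a change of GATA6 peak number over time was common to most genes. With the 0 h lists left out, 21.8% of genes were called. Klf4 was among them (exact permutation p = 0.00952, the smallest that 8 lists allow, adjusted p = 0.0438), and Klf5 (adjusted p = 0.058) and Klf2 (adjusted p = 0.0864) were not. Over every alternative tried, the adjusted p of exact permutation tests ranged from 0.0093 to 0.258 for Klf5, 0.00908 to 0.491 for Klf4 and 0.0247 to 0.791 for Klf2.

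The GATA6 lists themselves became shorter after 2 h. Per 10000 peaks of a list, Klf5 had 6.06 ± 0.00969 GATA6 peaks at 2 h (SD, n = 2), then 6.72 ± 0.651 by 4 h, 7.80 ± 0.669 by 8 h and 7.80 ± 0.891 by 48 h. On this scale Klf5 was thus higher at 48 h than at 2 h, and so was Klf4, at 4.58 ± 0.68 against 3.36 ± 0.658, while Klf2 was lower, at 1.54 ± 2.17 against 2.98 ± 0.296. With the 0 h lists left out, these shares did not pass the test over time (exact permutation adjusted p = 0.258 for Klf5, 0.491 for Klf4 and 0.791 for Klf2). With the 0 h lists, which held no peak near the genes, the adjusted p was 0.0491, 0.0798 and 0.297 by the same exact permutation test. With a window of 50 kb, the GATA6 call for Klf4 was lost (exact permutation adjusted p = 0.0685), and 10 of its 14 reproducible 2 h sites lay farther away.

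Klf5 stood high among all genes in GATA6 peak number. Only 33 of 21911 protein-coding genes had a higher mean at 2 h and 15 at 8 h, against 845 and 526 for Klf4 and 1362 and 994 for Klf2. Btn2a2 had the highest mean at 2 h, 61.5 peaks. The Klf5 to Klf4 ratio of GATA6 peaks, as log2 after adding 1 to each count, had means of 0.84 ± 0.27, 0.78 ± 0.31 and 0.83 ± 0.06 over the lists of 2, 4 and 8 h (SD, n = 2), and it did not pass the test over time (exact permutation p = 0.0825, adjusted p = 0.248 over 3 ratios). The 0 h lists, with no peak near either gene, enter this test as a ratio of 0 without spread. With a 50 kb window the exact permutation adjusted p was 0.0381 with the 0 h lists and 0.343 without them, and with the 100 kb window it was 0.743 without them. The same ratio for NANOG and SOX2 did not pass either (exact permutation adjusted p = 0.686 for both).

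**Figure D1:**
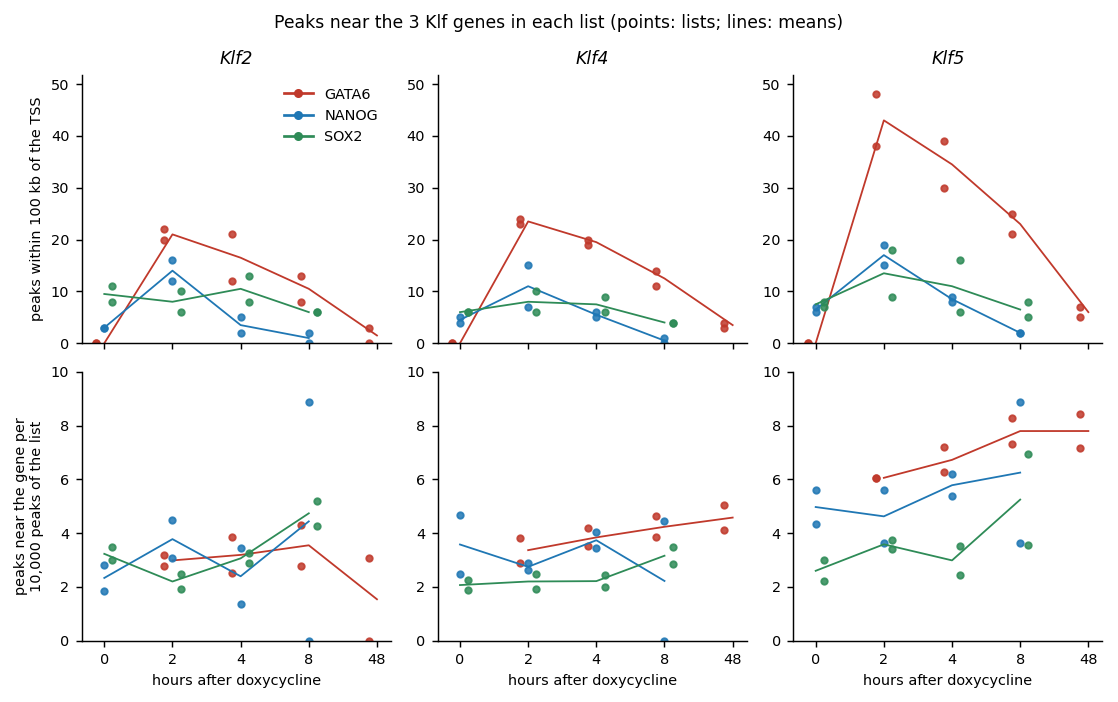
Peaks within 100 kb of the TSS (upper row, number) and per 10000 peaks of the list (lower row, without GATA6 0 h) against hours after doxycycline (evenly spaced time points) for GATA6, NANOG and SOX2, with 1 point per list and lines through the means of the 2 lists. GATA6 counts reach means of 21.0, 23.5 and 43.0 for Klf2, Klf4 and Klf5 at 2 h and fall to 1.5, 3.5 and 6.0 at 48 h, whereas per 10000 peaks Klf5 goes from 6.06 to 7.80.

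NANOG peaks near the 3 genes were most numerous at 2 h as raw counts. Near Klf5, the 2 NANOG lists of 0, 2, 4 and 8 h held in turn 6 and 7, 19 and 15, 8 and 9, and 2 and 2 peaks. Near Klf4 they held 5 and 4, 15 and 7, 6 and 5, and 0 and 1. Near Klf2 they held 3 and 3, 16 and 12, 2 and 5, and 0 and 2. Both 2 h lists lay above both 0 h lists for each gene, as for 60.6% of genes, and both 4 h lists below both 2 h lists (54.4% of genes). At 8 h both lists lay below both 4 h lists for Klf4 and Klf5 (44.7% of genes), and below both 0 h lists for all 3 genes (38.9%). Differences over time had exact permutation p = 0.00952 for Klf5, the smallest that 8 lists allow, p = 0.019 for Klf4 and p = 0.0762 for Klf2. None passed after adjustment over all genes (adjusted p = 0.163, 0.163 and 0.222), and with this exact permutation test none of the 20373 genes did, with 4482 genes (22.0%) at an unadjusted p under 0.05. The 2 h replicates of NANOG held 52285 and 26742 peaks in all. Per 10000 peaks of the list, NANOG near Klf5 had 4.97 ± 0.909 at 0 h and 4.62 ± 1.40 at 2 h (SD, n = 2), and near Klf4 3.57 ± 1.56 and 2.74 ± 0.178, so the 2 h mean was the lower one for these genes. Near Klf2 it was 2.33 ± 0.673 and 3.77 ± 1.01. On this scale no gene of the 3 passed over time (exact permutation adjusted p = 1.0 for each).

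SOX2 peaks were present near each gene in every list. Near Klf2, the 2 SOX2 lists of 0, 2, 4 and 8 h held in turn 11 and 8, 6 and 10, 13 and 8, and 6 and 6 peaks. Near Klf4 they held 6 and 6, 6 and 10, 9 and 6, and 4 and 4. Near Klf5 they held 7 and 8, 9 and 18, 16 and 6, and 5 and 8. Both 8 h lists lay below both 0 h lists (background 57.7%) and both 4 h lists (52.4%) for Klf2 and Klf4 and not for Klf5, whose 2 h lists both lay above its 0 h lists (13.0%). Per 10000 peaks of the list the order was turned, with both 8 h lists above both 0 h lists: near Klf2 SOX2 had 4.73 ± 0.658 at 8 h and 3.23 ± 0.345 at 0 h, and near Klf4 3.16 ± 0.439 and 2.06 ± 0.243 (SD, n = 2). On this scale the exact permutation adjusted p over time was 0.332 for Klf2 and 0.435 for Klf4. No gene of the 3 passed the test over time in raw counts (exact permutation p = 0.429 for Klf2, 0.257 for Klf4 and 0.438 for Klf5, adjusted p = 0.764, 0.764 and 0.775). The test called 0 of 20811 genes after adjustment and 547 (2.63%) at an unadjusted exact permutation p under 0.05.

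GATA4 and SOX17, transcription factors of PrE, were mapped at 24 h without a 0 h counterpart. GATA4 lists held 3 and 1 peaks near Klf2, 6 and 3 near Klf4, and 6 and 4 near Klf5. SOX17 lists held 7 and 14, 15 and 22, and 15 and 24. For each factor the lists of Klf4 and Klf5 overlapped. The median over all genes was 1 and 0 peaks in the GATA4 lists and 3 and 4 in the SOX17 lists. Of 21911 genes, 142 had a higher GATA4 mean than Klf5, 231 than Klf4 and 2802 than Klf2. For SOX17 these numbers were 271, 345 and 2561.

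The same counts were taken for the KLF family, 17 genes. GATA6 peak number over time passed for 13 of 17, all with fewer peaks at 48 h than at 2 h, beside the 68.8% of all genes. The median gene of the family had 16.5 GATA6 peaks at 2 h and 1.5 at 48 h, against 7.0 and 0.5 over all genes. Klf5 was the highest member at 2 h, followed by Klf9 with a mean of 35.0 and then Klf6. Klf9 was the highest for NANOG, with means of 13.0 peaks at 0 h and 26.5 at 2 h, and 12 of 17 members had both NANOG 2 h lists above both 0 h lists, near the 60.6% of all genes. Among 18 naive pluripotency genes, 18 passed for GATA6, beside the same 68.8%, and 12 had NANOG 2 h above 0 h without overlap, also near that 60.6%. Their median was 18.0 GATA6 peaks at 2 h, and Tbx3, a T-box factor of the naive network, was the highest with 51.0. No gene of either list passed for NANOG or SOX2. The GATA6 calls of both gene lists rest on the test with the 0 h lists. With the 0 h lists left out, 21.8% of all genes were called, and the calls of the 2 gene lists were not counted.

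Genes on other chromosomes or more than 500 kb away were ranked by how closely their counts ran with those of each Klf gene. Over the 28 lists without GATA6 0 h, on log2 counts less the mean over all genes in the list, Pmaip1 was closest to Klf4 (Pearson r = 0.85), then Fgr and Egfl7 (both 0.83). Tpm1 (0.83), Wdr13 (0.83) and 1700017B05Rik (0.82) were closest to Klf5, and Shkbp1 (0.82), Gm20479 (0.81) and Sigirr (0.78) to Klf2. Lists of one factor share antibody and depth, so these values describe likeness only.

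At the level of sites, 55 of the 205 had GATA6 in both 2 h lists (26.8%, against 20.2% of all sites of the series). Of these, 13 were near Klf2, 14 near Klf4 and 28 near Klf5. A peak in a single list was found at 89 of the 205 sites (43.4%), against 55.2% of all sites of the series. Peaks in 20 or more lists were found at 7 sites (3.41%, against 1.55% of the series). These lay 68.2 and 56.8 kb downstream of Klf4, 41.8, 33.1 and 26.2 kb downstream and 23.2 kb upstream of Klf5, and 47.6 kb upstream of Klf2. The fold of a peak is the fragment number at its summit over the local background, with 1 added to both. The mean GATA6 2 h fold over the 55 sites ranged from 3.39 to 52.0 with a median of 7.36, against a median of 6.93 over the 44122 such sites of the genome.

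**Figure D2:**
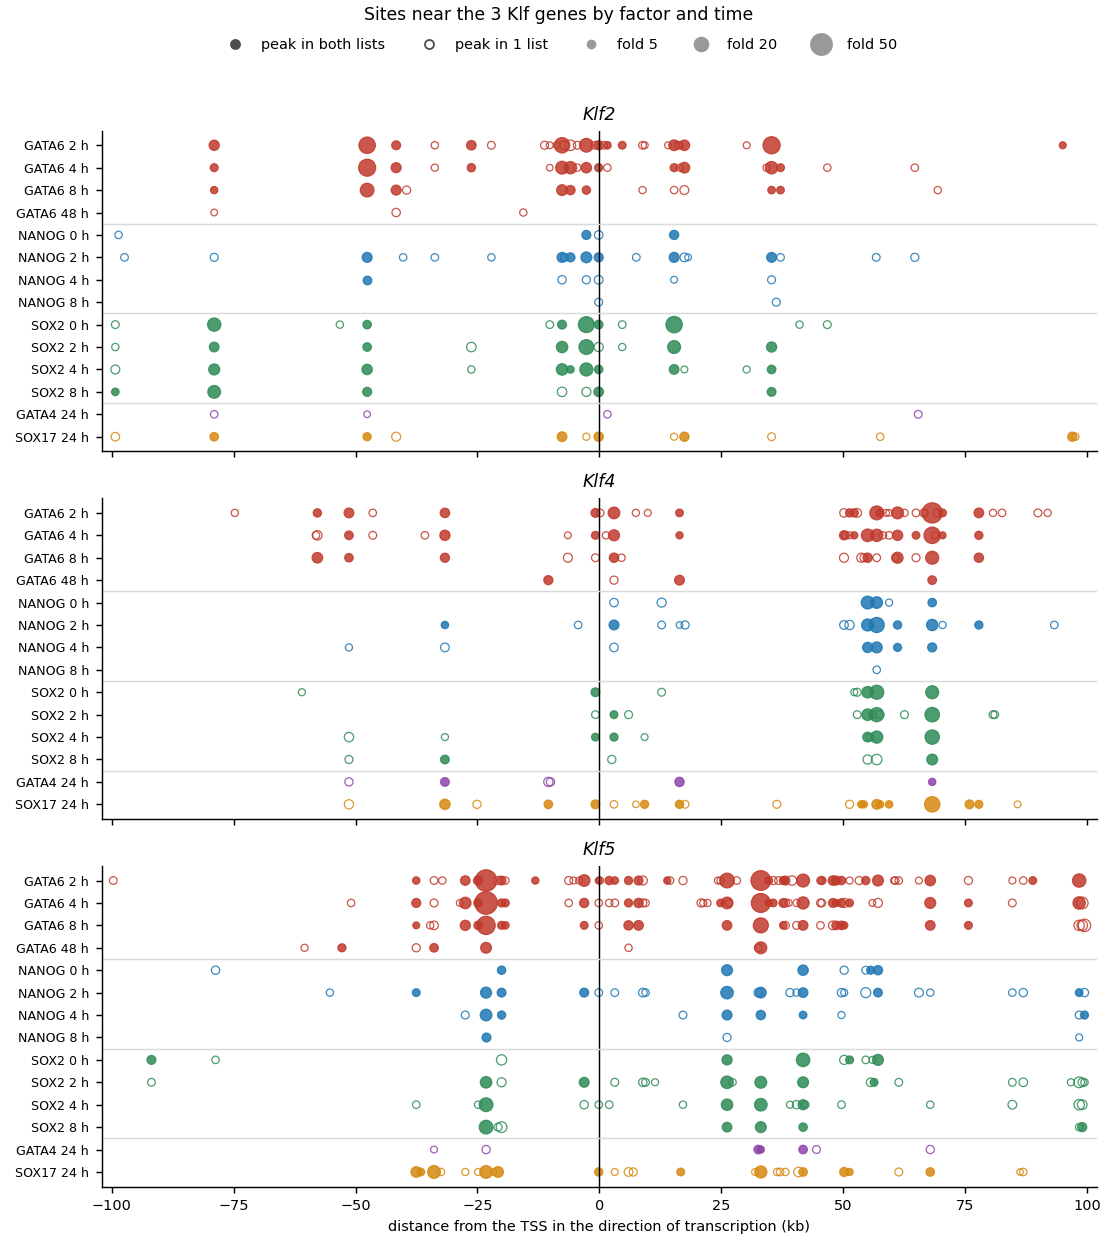
Sites by distance from the TSS in kb (horizontal axis, negative values upstream) for each factor and time (rows) around Klf2, Klf4 and Klf5; filled markers have a peak in both lists, open ones in 1 list, and marker size grows with mean fold. Around Klf4, 8 of 14 GATA6 2 h sites and 3 of 3 NANOG 0 h sites lie between 50 and 80 kb downstream. Around Klf5 these are 3 of 28 and 2 of 5.

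Klf5 had the strongest GATA6 site of the 3 genes, 23.2 kb upstream of its TSS in an intergenic stretch, shown above with a TTATCT word in capitals. GATA6 was not found there at 0 h and had folds of 58.8 and 45.2 in the 2 h lists, 44.4 and 71.1 in those of 4 h, 33.3 and 40.8 in those of 8 h, and 11.7 and 11.0 in those of 48 h. At 2 h it took places 178 and 219 in lists of 79358 and 62683 peaks, with 147 and 101 fragments at the summit. NANOG was absent from both 0 h lists and then had folds of 13.9 and 10.1 (2 h), 15.1 and 12.2 (4 h), and 7.12 and 6.85 (8 h). It was the single site near the 3 genes with NANOG in both 8 h lists, of 489 in the genome. SOX2 likewise had no peak at 0 h, and folds of 8.65 and 17.9 (2 h), 22.7 and 17.1 (4 h), and 21.1 and 18.1 (8 h). Its mean SOX2 8 h fold was the 103rd of 7164 sites. SOX17 had folds of 15.9 and 17.8 at 24 h, and GATA4 a peak in 1 list, with a fold of 5.63.

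The site 33.1 kb downstream of Klf5 was likewise free of GATA6, NANOG and SOX2 peaks at 0 h. GATA6 folds were 45.3 and 41.7 (2 h), 29.5 and 50.9 (4 h), 23.1 and 25.5 (8 h), and 12.1 and 16.6 (48 h), with no peak at 0 h. NANOG was found at 2 h (13.8 and 8.77) and 4 h (9.34 and 6.64) and in neither 0 h list, and SOX2 at 2 h (11.4 and 17.0), 4 h (18.3 and 14.6) and 8 h (8.87 and 14.2). GATA4 (4.13 and 3.39) and SOX17 (13.9 and 16.0) were both present at 24 h. Both Klf5 sites thus had GATA6 in every list from 2 to 48 h, which held at 2207 sites of the genome.

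NANOG sites of the naive state near Klf5 numbered 5, at 26.2, 41.8, 55.6 and 57.1 kb downstream and 20.1 kb upstream. The strongest, 26.2 kb downstream, had NANOG folds of 8.51 and 14.8 (0 h), 20.8 and 11.5 (2 h), 7.67 and 10.8 (4 h), and 5.39 in 1 list of 8 h. GATA6 had folds of 22.2 and 24.2 (2 h), 11.2 and 16.3 (4 h), 6.22 and 10.7 (8 h) and no peak at 48 h. SOX2 was there in every list, with folds of 11.0 and 8.57 at 0 h and 8.33 and 8.77 at 8 h. At 41.8 kb downstream NANOG had folds of 10.4 and 10.3 at 0 h and none at 8 h, while SOX2 had 18.7 and 19.7 at 0 h and 6.30 and 5.75 at 8 h. That site was in 24 lists and was also bound by GATA4 (5.79 and 6.81) and SOX17 (6.58 and 5.77). The site 55.6 kb downstream had NANOG at 0 h alone (4.48 and 5.72) and no GATA6 peak.

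GATA6 was found in both 48 h lists at 4 Klf5 sites. Besides those 23.2 kb upstream and 33.1 kb downstream, they were 33.9 kb upstream (folds of 7.40 and 5.23) and 52.8 kb upstream, in an intron of Pibf1 (4.51 and 6.05). The first of these had GATA6 in 1 list at each of 2, 4 and 8 h and SOX17 folds of 16.2 and 18.0, and the second had no peak of any other list. The strongest GATA4 site near Klf5, 32.6 kb downstream (5.92 and 6.72), is a neighbour of the 33.1 kb site. GATA6 peaks with summits elsewhere covered it in every list of 2, 4 and 8 h, with folds of 23.1 to 50.9. SOX17 peaks with summits elsewhere covered it in both lists (13.9 and 16.0). At the promoter, 143 bp from the TSS, GATA6 folds were 3.93 and 3.10 at 2 h.

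Around Klf4, 8 of 14 GATA6 2 h sites and 3 of 3 NANOG 0 h sites lay between 50 and 80 kb downstream. Such a share was not taken over all genes. The site 68.2 kb downstream, which lies in an intron of Gm12510, had a peak in 26 of the 30 lists. GATA6 had folds of 50.7 and 41.0 (2 h), 27.7 and 31.1 (4 h), 16.1 and 19.3 (8 h), and 5.04 and 7.85 (48 h). NANOG folds were 4.23 and 8.15 (0 h), 13.8 and 11.9 (2 h), and 8.58 and 6.17 (4 h), with no peak at 8 h. SOX2 was present at every time, with folds of 18.9 and 16.3 at 0 h and 14.2 and 8.78 at 8 h. GATA4 (4.34 and 3.52) and SOX17 (19.0 and 32.5) were present at 24 h. It was the single NANOG 0 h site of the 3 genes that also had GATA6 in both 48 h lists.

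The pair of sites 55.0 and 56.8 kb downstream of Klf4 had the strongest naive-state NANOG binding. At 55.0 kb, shown above with a TTTGCAT word, NANOG had folds of 19.1 and 14.8 (0 h), 14.6 and 15.0 (2 h), 10.8 and 8.90 (4 h) and none at 8 h, and its 0 h mean was the 242nd of 7616 sites. At 56.8 kb NANOG had 10.2 and 16.8 (0 h), 27.4 and 21.9 (2 h), 12.2 and 11.5 (4 h), and 4.35 in 1 list of 8 h. SOX2 at 56.8 kb had 18.0 and 23.9 at 0 h and a peak in 1 of the 8 h lists. GATA6 at 56.8 kb had folds of 27.9 and 13.1 (2 h), 14.7 and 16.3 (4 h) and a peak in 1 list of 8 h. Its 2 h peaks also covered the 55.0 kb site, with summits 1885 and 1697 bp away, so the 55.0 kb site counted as having no GATA6 summit at 2 h. At 4 h it had GATA6 folds of 14.6 and 18.1.

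GATA6 at 48 h was found in both lists at 3 Klf4 sites. The site 16.4 kb downstream had higher GATA6 folds at 48 h (9.53 and 8.35) than at 2 h (4.92 and 4.35) or 4 h (4.35 and 3.14), with no peak at 8 h. It also had GATA4 (10.9 and 4.77) and SOX17 (5.01 and 6.36). The site 10.5 kb upstream had GATA6 at 48 h only (5.89 and 8.90), SOX17 (4.44 and 8.09) and GATA4 in 1 list (7.82). The site nearest to the Klf4 TSS, in the UTR 156 bp into the gene, had a single GATA6 2 h peak. The other site within 1 kb, 821 bp upstream, had GATA6 folds of 7.26 and 6.50 at 2 h and 2.97 and 6.92 at 4 h, SOX2 folds of 7.77 and 5.63 at 0 h, and SOX17 folds of 7.61 and 5.88.

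Within 50 kb of the TSS lay 11 of 13 GATA6 2 h sites near Klf2 and 23 of 28 near Klf5, against 4 of 14 near Klf4. The strongest near Klf2 was 35.3 kb downstream, in an intron of Eps15l1, with GATA6 folds of 34.6 and 29.9 (2 h), 14.0 and 17.8 (4 h), and 6.32 and 2.51 (8 h). The site 47.6 kb upstream, which is nearer to the TSS of Ap1m1, had 34.3 and 24.3 (2 h), 29.3 and 34.5 (4 h), and 16.6 and 22.8 (8 h). The site 7.7 kb upstream, which is nearer to the TSS of Gm10282, had 26.6 and 24.1 at 2 h and 13.4 and 9.44 at 8 h. None of the 3 had GATA6 at 48 h or NANOG at 0 h, and all had NANOG in both 2 h lists.

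The NANOG 0 h sites of Klf2 lay 2.7 kb upstream and 15.3 kb downstream and were strong SOX2 sites. At 2.7 kb upstream NANOG had folds of 8.08 and 6.21 at 0 h and 12.8 and 10.3 at 2 h, and SOX2 had 26.9 and 28.4 (0 h), 20.2 and 26.8 (2 h), and 21.7 and 13.8 (4 h). At 15.3 kb downstream, shown above with an ACAAAG word, NANOG had 7.87 and 7.36 at 0 h, and SOX2 had 35.7 and 22.7 (0 h), 11.0 and 23.3 (2 h), and 9.76 and 7.54 (4 h). At 8 h SOX2 was found in 1 list at the upstream site and in neither at the downstream one. GATA6 was at both at 2 h, with folds of 23.0 and 16.9 upstream and 10.0 and 12.2 downstream. At the promoter, 154 bp upstream of the TSS, GATA6 had 8.56 and 6.84 at 2 h and SOX2 7.40 and 5.56 at 0 h.

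**Figure D3:**
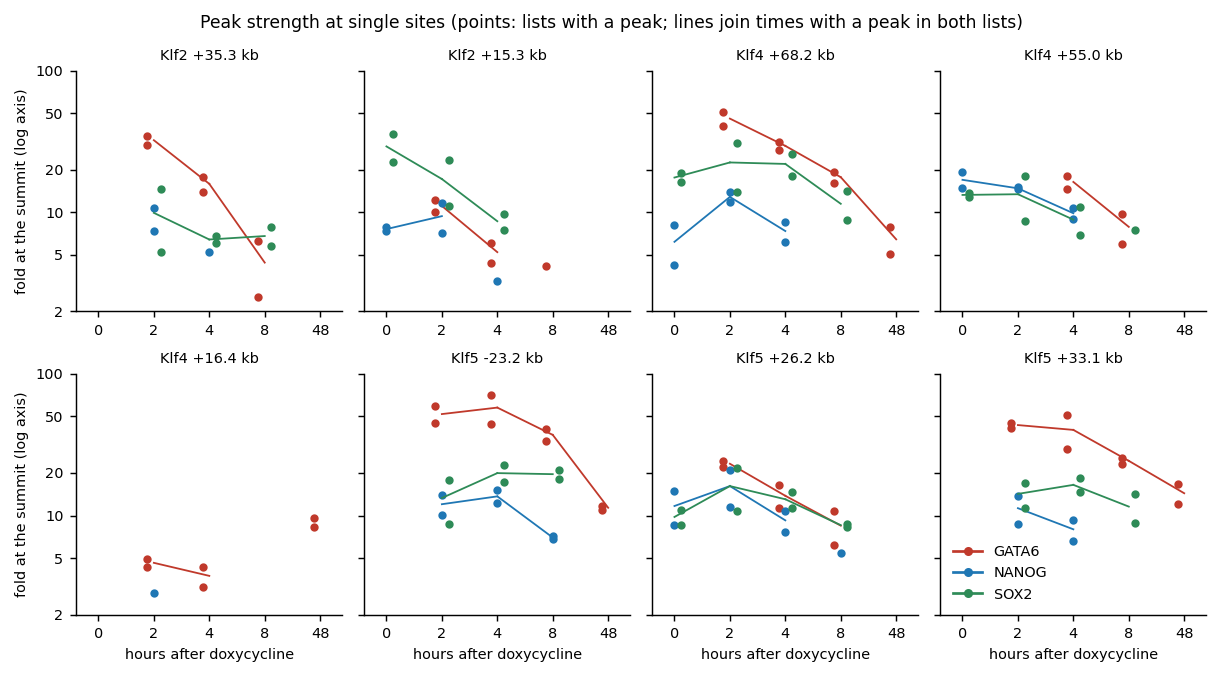
Fold at the summit (vertical axis, log scale) against hours after doxycycline for the site named above each panel by its distance from the TSS, with 1 point per list with a peak and lines joining the means of times with a peak in both lists. The Klf5 sites at -23.2 and 33.1 kb keep GATA6 to 48 h, at folds of 11.0 to 16.6, and have NANOG and SOX2 at 2 and 4 h and not at 0 h, whereas the Klf4 site at 55.0 kb has NANOG at 0 h at 19.1 and 14.8.

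Sites that NANOG held in both lists at 0 h, 10 of 205 (4.88%, against 3.48% of all sites), were then followed. Of the 10 such sites, 8 had GATA6 in both 2 h lists (72.1% of all 7616 NANOG 0 h sites) and 8 had SOX2 in both 0 h lists (76.5%). The Klf4 site at 55.0 kb was not among the 8 with GATA6, although GATA6 2 h peaks with summits elsewhere covered it. NANOG was still in both lists at 9 of the 10 sites at 2 h (75.0%) and at 6 at 4 h (35.1%). By 8 h, 8 of 10 had no NANOG peak in either list (86.2%), and GATA6 was in both 48 h lists at 1 of 10 (3.89%). By gene, NANOG was in both 4 h lists at 0 of 2 Klf2 sites, 3 of 3 Klf4 sites and 3 of 5 Klf5 sites.

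NANOG at 2 h was found in both lists at 23 of the 205 sites (11.2%, against 8.83% of all sites). Of these, 12 had no NANOG peak at 0 h (51.9% of 19305). GATA6 was in both 2 h lists at 21 of the 23 (81.8%). The exceptions were the Klf4 site at 55.0 kb and a site 5.9 kb upstream of Klf2. GATA6 peaks with summits elsewhere covered the Klf4 site in both 2 h lists. At the Klf2 site GATA6 was in 1 of the 2 h lists with a fold of 10.6. Seen from GATA6, 21 of its 55 sites at 2 h had NANOG in both 2 h lists (35.8%), 11 of them without NANOG at 0 h (18.5%). Both shares lay near those of the series, 38.2% and 20.0% of the 55 sites.

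Most early GATA6 sites had no GATA6 peak at 48 h. GATA6 was in both lists at 39 of 55 sites at 4 h (61.7% of the 44122 sites of the genome), 28 at 8 h (36.9%) and 4 at 48 h (5.62%), and 46 had no peak in either 48 h list (89.4%). By the record in place of the peak names, 28 of 55 sites had GATA6 in both 48 h lists. The 4 sites kept were those of Klf5 at 23.2 kb upstream and 33.1 kb downstream and of Klf4 at 68.2 and 16.4 kb downstream. None of the 13 Klf2 sites kept it. GATA6 was in both 48 h lists at 7 of the 205 sites (3.41%, against 1.91% of all sites). Of these 7, 6 had SOX17 in both lists (70.1% of 4169) and 3 had GATA4 (39.8%), and 4 had GATA6 in both 2 h lists (59.4%).

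SOX2 was in both 0 h lists at 15 of the 205 sites (7.32%, against 7.75% of all sites), and in both 8 h lists at 6 of these (20.9% of 16958). GATA6 was in both 2 h lists at 12 of the 15 (61.9%). Of the 55 GATA6 2 h sites, 12 had SOX2 in both 0 h lists (23.8%) and 14 in both 2 h lists (32.1%), and 8 had NANOG in both 0 h lists (12.4%). SOX2 was in both 8 h lists at 12 of the 205 sites (5.85%, against 3.28% of all sites). Of these 12, 5 had no SOX2 peak at 0 h (39.5% of 7164), 3 of them near Klf5, and 10 had GATA6 in both 2 h lists (89.5%). SOX17 was in both lists at 31 of the 205 sites (15.1%, against 8.71% of all sites of the series). Of the 55 GATA6 2 h sites, 18 had SOX17 in both lists (32.7%, against 23.6% of such sites in the series). GATA4 was in both lists at 6 of the 205 sites (2.93%, against 1.43% of all sites), 5 of them with SOX17 (79.0%).

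**Figure D4:**
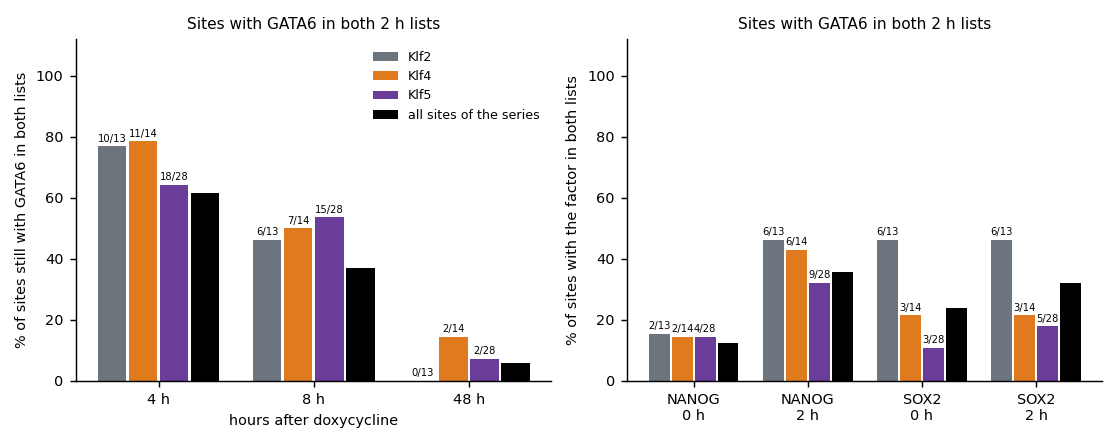
Share in percent (vertical axis) of the sites with GATA6 in both 2 h lists that still had GATA6 in both lists at 4, 8 and 48 h (left) and that had NANOG or SOX2 in both lists at 0 or 2 h (right), with bars for Klf2, Klf4, Klf5 and all such sites of the series and counts above the bars. At 48 h the shares are 0 of 13, 2 of 14 and 2 of 28 against 5.62% of the series.

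GATA words were present within 100 bp of the summit at 30 of the 55 GATA6 2 h sites, 6 of 13 near Klf2, 6 of 14 near Klf4 and 18 of 28 near Klf5, against 54.4% of such sites in the genome and 40.5% of all sites. At the GATA6 48 h sites they were present at 6 of 7, against 78.7%. SOX words were present at 8 of 10 NANOG 0 h sites, against 50.5% of these sites in the genome and 32.7% of all sites. GATA words were present at 6 of the same 10 sites, against 32.6% of these sites in the genome. A word of another motif can overlap these, and the shares describe letters only.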

How the data were processed

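Of the 57 samples, peak lists of 30 were used and 27 samples were left out. As the study's methods describe, reads were aligned by the authors to mm10 with Bowtie2. They removed blacklisted regions with SAMtools, kept duplicates and, for these factors, only short fragments, and called narrow peaks with MACS on each library against an anti-rabbit antibody control. The deposited fold, a ratio, and −log10 p and q values are those of the caller, and all peaks have q of at most 0.05. Counts, sites and fragments at summits, recovered from fold and p within 0.002 where a whole number fitted, were computed with Python 3.11.15, pandas 2.3.3, numpy 2.4.6 and scipy 1.17.1. Recovery was not possible for GATA4. TSSs came from GENCODE on GRCm38.

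Time was tested by two-sided exact permutation of lists, F as the statistic, for every protein-coding gene. Adjustment ran over all genes, in place of the 12 tests first planned, and over 3 ratios. The procedure was tested on simulated data. Sites were named by fixed ranks of fold (GATA6 2 h and 48 h, NANOG 0 h, GATA4, SOX17), nearness to the TSS and number of lists, and counts of 5 or fewer in full. The Klf2 site 5.9 kb upstream is named as an exception to a count. Members and lists were chosen with earlier results of these data known. Precision is limited by 2 lists per group and by depth, and positions are 1-based.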

Additional observations from a re-analysis of the deposited data

How the results depend on the processing

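Of 173 alternatives for the tests over time, 142 kept direction and side of the threshold, and 63 of 93 for site counts stayed within 1.5 times. Values are the last time (48 h for GATA6, 8 h otherwise) minus 2 h in peaks, with adjusted p of the exact permutation test for GATA6. NANOG and SOX2 passed under none of the alternatives. A 50 kb window gave -3.5 (0.0685) for Klf4 and -1.59 (0.0381) for the log2 Klf5 to Klf4 ratio of GATA6, and -0.076 for that of NANOG. The top 10000 peaks of each list gave -5.0 (0.155) for Klf2, -0.5 (0.155) for Klf4 and 0.5 (0.184) for Klf5, 0.26 for their GATA6 ratio, and for SOX2 1.0, 1.0 and 0.5. Peaks per 10000 of the list gave -1.45 (0.297), 1.21 (0.0798) and 1.74 (0.0491) for GATA6, 0.66, -0.53 and 1.63 for NANOG, and 2.54, 0.96 and 1.66 for SOX2. With the 0 h lists left out, an alternative chosen after seeing the data, Klf2 was at -19.5 (0.0864) and Klf5 at -37.0 (0.058), and per 10000 peaks the p were 0.791, 0.491 and 0.258 at -1.45, 1.21 and 1.74. Replicate numbers did not pair the lists (correlations from -0.17 to 0.0854), and the replicate block gave -19.5 for Klf2 (0.0616) and changed no other call. Leaving out 1 list gave -21.0 to -18.0 for Klf2, with the call lost without replicate 1 of 0, 2 or 48 h or replicate 2 of 0 h, -20.5 to -19.5 for Klf4 and -42.0 to -32.0 for Klf5, with no call lost, and -0.076 to 0.92 and -0.39 to 0.20 for the NANOG and SOX2 ratios. In site counts, linking at 100 bp left Klf2 1 NANOG 0 h site, 1 with GATA6. A 50 kb window left 3 SOX2 8 h sites near Klf2, 3 NANOG 0 h sites near Klf5, and near Klf4 4 GATA6 2 h sites (2 with NANOG, 1 kept at 48 h), 1 SOX2 8 h site and 0 NANOG 0 h sites, hence 0 with GATA6. With −log10 q of at least 5, Klf2 had 3 SOX2 8 h sites, Klf4 1 NANOG 0 h site with GATA6 and Klf5 18 GATA6 2 h sites. With a peak in either list, GATA6 2 h sites were 29, 32 and 56 for Klf2, Klf4 and Klf5, those with NANOG 12, 10 and 18, and NANOG 0 h sites 4, 6 and 8; Klf2 kept 2 and Klf5 5 at 48 h, Klf4 had 4 NANOG 0 h sites with GATA6, and SOX2 8 h sites were 6 for Klf4 and 8 for Klf5. By the record, also chosen after seeing the data for the tests, the GATA6 differences were -10.5, -11.0 and -20.0 in place of -19.5, -20.0 and -37.0, with the same p, and 6, 7 and 15 sites kept GATA6 at 48 h. The cause of these shifts was not tested.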
